A study of Homo sapiens with 20 samples.

Results

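The genes of glucose uptake and glycolysis followed here are the glucose transporters SLC2A1, SLC2A3 and SLC2A14, the hexokinase HK2, the regulatory kinases PFKFB3 and PFKFB4, the glycolytic enzymes ALDOA, PGK1 and LDHA, and PDK1. They were chosen by name for their role, with earlier results of these data known, so their counts are not those of a random draw of genes. Every peak that overlapped a gene body or the 10 kb to either side of it (GRCh37, GENCODE release 44) was taken. This gave 43 of the 12171 peaks in 4 lists, at 10 of 20163 protein-coding genes.

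The peaks come from CUT&RUN, in which a nuclease tethered to an antibody releases the DNA beside a bound protein, in A498 cells, a line derived from a clear cell renal cell carcinoma. The cells had been infected with a pLKO.1 lentivirus and selected with puromycin, and expressed either a scrambled shRNA (shCNT) or one that targets BMAL1 (shBMAL1). Their chromatin was probed with antibodies to BMAL1 or HIF2α, or with control IgG. Per the labels the 20 libraries form 6 groups, with 4 libraries in each BMAL1 and HIF2α group and 2 in each IgG group. A single peak list per antibody and shRNA was analysed, with none for IgG. Whether a list pools its 4 libraries is not stated, so no value has a replicate and no test between lists was possible. The BMAL1 lists held 2350 peaks in shCNT and 4261 under shBMAL1, and the HIF2α lists 2361 and 3199. The BMAL1 list from the cells labelled shBMAL1 was thus the longer of its pair by 1.81 times, which goes against the direction of the label. The genome-wide background was 0.168 fragments in shCNT BMAL1 and 0.0839 in shBMAL1 BMAL1, so 4 and 3 overlapping fragments sufficed for a call. List lengths are therefore not directly comparable. Neither the depletion nor the identity of the cells can be checked from peak lists.

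Cells take up glucose through SLC2A transporters, trap it by phosphorylation through hexokinase, and break it down to pyruvate, which lactate dehydrogenase reduces to lactate or which enters the mitochondrion unless pyruvate dehydrogenase kinases close that route. Hypoxia-inducible factors are known to induce this pathway by binding hypoxia response elements whose core is ACGTG or GCGTG, and in clear cell renal cell carcinoma loss of VHL leaves HIF2α stable in the presence of oxygen. BMAL1 is a circadian factor that binds the E-box CACGTG with CLOCK, and each E-box contains the hypoxia-element core on both strands.

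The sequences below are the GRCh37 reference around the hypoxia-element cores beside HIF2α summits at 9 of the genes, and they are shown because the peaks described next overlap them. Each is written 5′ to 3′ on the strand of the gene, with the cores in capitals on whichever strand they lie.
SLC2A1 intron, chr1:43398040-43398117, minus strand: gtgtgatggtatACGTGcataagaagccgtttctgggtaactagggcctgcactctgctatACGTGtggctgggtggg
SLC2A3 long-isoform intron, chr12:8123290-8123438, minus strand: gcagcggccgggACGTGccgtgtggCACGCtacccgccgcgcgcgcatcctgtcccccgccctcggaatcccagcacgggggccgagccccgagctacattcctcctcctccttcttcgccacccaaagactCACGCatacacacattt
HK2 promoter, chr2:75060933-75061041, plus strand: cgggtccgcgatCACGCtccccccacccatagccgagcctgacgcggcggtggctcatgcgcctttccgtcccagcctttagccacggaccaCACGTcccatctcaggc
PFKFB3 intron, chr10:6246922-6247021, plus strand: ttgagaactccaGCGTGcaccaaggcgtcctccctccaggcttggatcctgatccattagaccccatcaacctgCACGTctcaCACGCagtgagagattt
PFKFB4 promoter, chr3:48594622-48594732, minus strand: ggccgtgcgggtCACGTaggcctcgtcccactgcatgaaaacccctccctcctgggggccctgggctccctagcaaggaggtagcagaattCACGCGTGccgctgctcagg
ALDOA promoter, chr16:30076871-30076899, plus strand: tgtggtccgagtCACGTccgaggggggtg
PGK1 promoter, chrX:77359522-77359578, plus strand: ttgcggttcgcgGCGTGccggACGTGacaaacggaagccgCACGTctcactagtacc
LDHA promoter, chr11:18415913-18416040, plus strand: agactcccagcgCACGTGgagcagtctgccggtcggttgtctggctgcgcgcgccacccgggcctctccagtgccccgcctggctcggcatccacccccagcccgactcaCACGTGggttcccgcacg
PDK1 promoter, chr2:173420789-173420817, plus strand: cctgctgcccgcCACGTccctCACGTacc

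The PGK1 stretch held 3 cores, the PFKFB3 and PFKFB4 stretches 3 each, and the LDHA stretch 2 complete E-boxes. At PDK1 no whole core lay in the 200 bp centred on the HIF2α summit, where the nearest one crossed the edge of the window in shCNT, and the stretch printed holds the 2 cores nearest to the summit.

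HIF2α was called at 9 of the 10 genes in shCNT and at 9 under shBMAL1. Over all protein-coding genes the same windows held a HIF2α peak at 11.4% in shCNT and 13.5% under shBMAL1. BMAL1 was called at 5 genes in shCNT and at 4 under shBMAL1, beside 12.8% and 18.6% of all genes. The windows of the 10 genes were longer than most, with a median of 76.3 kb against 47.2 kb, so the counts were also taken at promoters, with the summit within 1 kb of a start. HIF2α then remained at 6 genes in shCNT and 7 under shBMAL1 (5.42% and 5.74% of all genes), and BMAL1 at 3 and 1 (5.9% and 7.8%). HIF2α was missing in shCNT only at PFKFB3, and under shBMAL1 only at SLC2A14.

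Peaks were ranked by the deposited −log10 p within their own list, since the lists differ in depth. The 15 HIF2α peaks of shCNT had a median percentile of 79.9 and the 15 under shBMAL1 one of 78.3, where 50 is the middle of a list by construction. Of these, 4 and 3 were among the 100 strongest of their list. The 6 BMAL1 peaks of shCNT had a median percentile of 37.7 and the 7 under shBMAL1 one of 48.5, and none reached the 90th percentile.

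**Figure D1:**
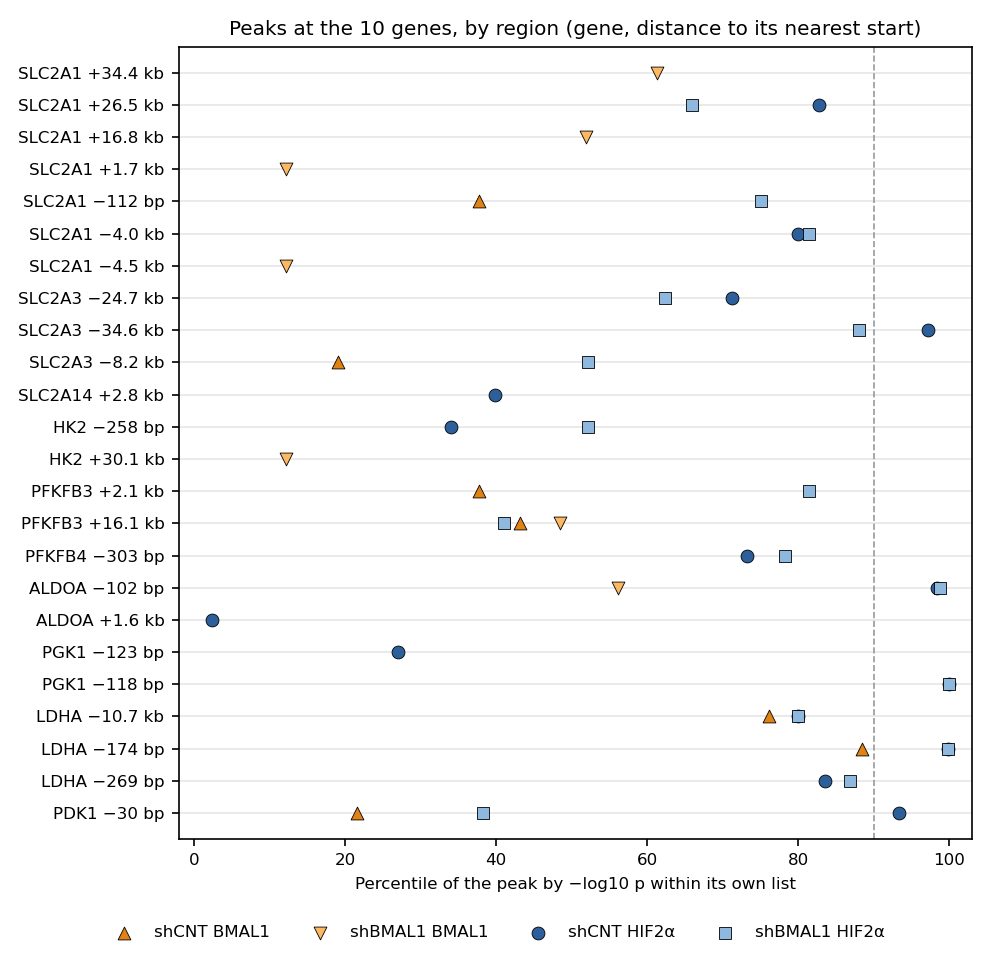
Percentile of each peak by −log10 p within its own list (x axis) for the 24 regions at the 10 genes (y axis, gene and distance from the summit to its nearest annotated start), with 1 symbol per list and a dashed line at the 90th percentile. HIF2α symbols of both lists lie right of the line at ALDOA, PGK1 and LDHA, and that of shCNT alone at SLC2A3 and PDK1, while no BMAL1 symbol does.

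When overlapping peaks were joined, the 43 peaks and 2 further peaks that overlapped one of them from just outside a window formed 24 regions. HIF2α was present in both lists at 12 of them, BMAL1 in both lists at 1, and no region was in all 4 lists. Of the HIF2α peaks in shCNT, 12 of 15 (80.0%, Wilson 95% interval 54.8 to 93.0) overlapped a HIF2α peak under shBMAL1, beside 55.8% of the whole list. In the other direction it was 11 of 15 (73.3%, 48.0 to 89.1), beside 41.2%. For BMAL1 it was 1 of 6 from shCNT (47.1% of the list) and 1 of 7 from shBMAL1 (26.1%). These intervals cover counting error over peaks only. They count peaks of the same gene as independent, so they are no test against the list. The HIF2α interval from shCNT includes the 55.8% of its list, and that from shBMAL1 lies above the 41.2%. HIF2α peaks at these genes also had more fragments at the summit than their lists, with a median of 11 against 8 in shCNT and 8 against 5 under shBMAL1. The shares of the lists were not matched for this.

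The transporters come first in the pathway. SLC2A1 encodes GLUT1, the basal glucose transporter of most cells, and had HIF2α at 2 regions in both lists. In the intron (chr1:43397855-43398197 in shCNT) the summit lay 26.5 kb inside the gene and ranked 398 in shCNT and 1006 under shBMAL1. The pileup, which is the number of fragments overlapping at the summit, was 12 in shCNT (95% Poisson interval 6.2 to 21.0) and 6 under shBMAL1 (2.2 to 13.1). Depth differed between the lists, with a genome-wide background of 0.209 fragments in shCNT HIF2α and 0.109 in shBMAL1 HIF2α. Divided by that background the intron pileups were 57.4 and 54.8, a ratio of 0.954 (0.294 to 2.75) on this scale. With the median pileup of shared HIF2α peaks set equal between the lists instead, the ratio was 0.625, and each ratio given for a region here is lower by the same factor on that scale. The second region, 3.99 kb before the start in an intron of the divergent transcript SLC2A1-DT, ranked 464 and 562, with pileups of 11 and 8.

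At the SLC2A1 promoter the calls followed another pattern. BMAL1 was called in shCNT (chr1:43424561-43424728, rank 1372, pileup 5), and HIF2α was called under shBMAL1 (chr1:43424569-43425080, rank 755, pileup 7). No BMAL1 peak was called there under shBMAL1 and no HIF2α peak in shCNT. Scaled to the background of shBMAL1 BMAL1, the BMAL1 pileup of shCNT would be 2.5 (0.812 to 5.84), against a smallest callable pileup of 3. The absence of BMAL1 there was thus not distinguishable from lower depth. Scaled to the background of shCNT HIF2α, the HIF2α pileup under shBMAL1 would be 13.4 (5.37 to 27.5). At the lowest background of that list 4 fragments are needed for a call. With the median pileup of shared peaks (10 in shCNT and 8 under shBMAL1) set equal instead, the scaled pileup and its interval would be lower. These were not computed, so the interval is not shown to clear the limit on that scale. The 4 other BMAL1 peaks at SLC2A1, all in shBMAL1, overlapped no other list and had pileups of 3 to 5, where 3 is the smallest pileup callable in that list.

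SLC2A3 encodes GLUT3, a transporter of high glucose affinity. Its main HIF2α region (chr12:8122986-8123788 in shCNT) lay 34.6 kb before the nearest start, in an intron of a long isoform. It ranked 65 in shCNT and 383 under shBMAL1, with pileups of 28 and 17. Over the genome-wide background these were 134 and 155, a ratio of 1.16 (0.595 to 2.19). The local background behind the p-value was 0.213 in shCNT and 0.737 under shBMAL1, beside the lower rank under shBMAL1. Scaled by the median pileup of shared peaks the ratio was 0.759. This peak held 8 cores, 3 of them in the 200 bp around the summit.

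A second SLC2A3 region, 24.7 kb before the start, ranked 662 and 1189. The third lay nearer to the start of FOXJ2 than to SLC2A3, and was BMAL1 in shCNT (rank 1855) with HIF2α under shBMAL1 (rank 1406). Scaled to the list of the same antibody without a call, these pileups would be 3.0 (1.1 to 6.53) and 9.54 (3.1 to 22.3). The smallest callable pileups there were 3 and 4, so both intervals reach below the limit. SLC2A14, which encodes GLUT14 and arose as a duplicate of SLC2A3, had 1 peak over the 4 lists together. This HIF2α peak of shCNT (chr12:8013147-8013289) ranked 1411 with a pileup of 6, in a noncoding exon of another gene, and held an AP-1 site but no core in the 200 bp around its summit. At the depth of shBMAL1 HIF2α it would have a pileup of 3.14 (1.15 to 6.84) against a smallest callable pileup of 3, so its absence there was not distinguishable from lower depth. No 32-base word of the SLC2A14 peak occurred elsewhere in the genome, and 7.77% of the words of the main SLC2A3 peak did.

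HK2 encodes the hexokinase isoform that tumours commonly express, and its HIF2α peaks were weak in both lists. The summit lay 258 bp before the start in shCNT (chr2:75060961-75061391, rank 1556, pileup 6) and 265 bp before it under shBMAL1 (rank 1406, pileup 5). The depth-scaled ratio was 1.59 (0.384 to 6.26). The position overlaps an exon of the divergent transcript HK2-DT, and both windows held 2 cores. Of these, the core at chr2:75061025-75061029 lay within both peaks, and the other lay before the start of each. The only BMAL1 peak at HK2, under shBMAL1 in an intron, had a pileup of 3.

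PFKFB3 and PFKFB4 make and remove fructose 2,6-bisphosphate, the activator of phosphofructokinase. The pair differed in presence. At PFKFB4 the HIF2α summit lay 368 bp before the start in shCNT (chr3:48594352-48594865) and ranked 630, with 693 under shBMAL1. Its pileups were 11 and 13, the only region of the 12 with more fragments under shBMAL1, and its depth-scaled ratio of 2.26 (0.933 to 5.56) was the highest of the 12. No BMAL1 peak was called at PFKFB4.

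At PFKFB3 no HIF2α peak was called in shCNT. Under shBMAL1 one was called in an intron 2.06 kb after a start (chr10:6246643-6247105, rank 562, pileup 8, 3.45 to 15.8), which at the depth of shCNT HIF2α would be 15.3 (6.59 to 30.1), where 4 suffice for a call. The lower bound of that scaled interval was above the limit, which applies at the lowest background of the list. With the median pileup of shared peaks set equal instead, the scaled pileup and its interval would be lower, and these were not computed. BMAL1 was called at the same place in shCNT (chr10:6246907-6247080, rank 1372, pileup 5) and not under shBMAL1. That BMAL1 pileup scaled to shBMAL1 BMAL1 would be 2.5 (0.812 to 5.84) against a smallest callable pileup of 3, so its absence was not distinguishable from lower depth. At 16.1 kb after the start BMAL1 was called in both lists, with pileups of 7 and 5, and HIF2α under shBMAL1 with a pileup of 5. This was the only region of the 24 with BMAL1 in both lists. An E-box (chr10:6261183-6261188) lay in the 200 bp around its shBMAL1 BMAL1 summit, but past the end of that peak at 6261179. In shCNT the E-box lay within the BMAL1 peak, 185 bp from the summit and so outside the 200 bp window.

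ALDOA encodes the aldolase that splits fructose 1,6-bisphosphate. Its HIF2α promoter peak stood at nearly the same place in both lists, with rank 41 in shCNT (chr16:30076448-30077112) and rank 42 under shBMAL1 (chr16:30076663-30077102). The summit was at the same base in both lists, 102 bp before a start. Pileups were 39 (27.7 to 53.3) and 27 (17.8 to 39.3), or 187 and 247 over background, a ratio of 1.32 (0.778 to 2.21). BMAL1 was called here under shBMAL1 (rank 1867, pileup 6) and not in shCNT. Scaled to the background of shCNT BMAL1, the interval of that pileup would be 4.4 to 26.1, above the smallest callable pileup of 4. That limit applies at the lowest background of the list, and the local background here under shBMAL1 was 0.178, against 0.0839 genome-wide. The scaled intervals of the BMAL1 peaks called only under shBMAL1 at SLC2A1 and HK2 reach below 4. The core printed above lay 93.5 bp from the HIF2α summit.

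PGK1 encodes phosphoglycerate kinase, which makes the first ATP of the pathway. Its promoter held the strongest peak of both HIF2α lists (chrX:77359237-77359841 and chrX:77359294-77359810), with summits 118 and 134 bp before the start. The pileup was 199 (172 to 229) in shCNT and 129 (108 to 153) under shBMAL1, or 953 and 1180 times the genome-wide background, a ratio of 1.24 (0.984 to 1.55). Neither BMAL1 list had a peak there. The local background in shCNT was 5.24 fragments, 25.1 times the genome level and the highest of the 2361 peaks, and under shBMAL1 it was 0.806, 7.37 times the genome level. Vectors of the pLKO.1 type carry a human PGK promoter in front of the puromycin resistance gene, so fragments of the vector and of the chromosome cannot be told apart at this peak. A further HIF2α peak of shCNT counted to PGK1 lay 74 bp before the start of its neighbour ATP7A, where a long PGK1 isoform also begins, with a rank of 1638, a pileup of 5 and an E-box.

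LDHA encodes the subunit of lactate dehydrogenase that turns pyruvate into lactate, and had 3 HIF2α regions in both lists. The promoter peak ranked 6 in shCNT (chr11:18415389-18416390) and 8 under shBMAL1 (chr11:18415672-18416348). Pileups were 52 (38.8 to 68.2) and 38 (26.9 to 52.2), or 249 and 347 over background, a ratio of 1.39 (0.893 to 2.16). BMAL1 was called at this promoter in shCNT (chr11:18415629-18415954, rank 271, pileup 9), the highest rank of any BMAL1 peak at the 10 genes. No BMAL1 peak was called there under shBMAL1, although the shCNT pileup scaled to that depth would be 4.5 (2.06 to 8.54) against a smallest callable pileup of 3, so the interval reaches below the limit. The HIF2α summit of shCNT lay 174 bp and the BMAL1 summit 258 bp before the start, and the first E-box of the sequence above was in both 200 bp windows.

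**Figure D2:**
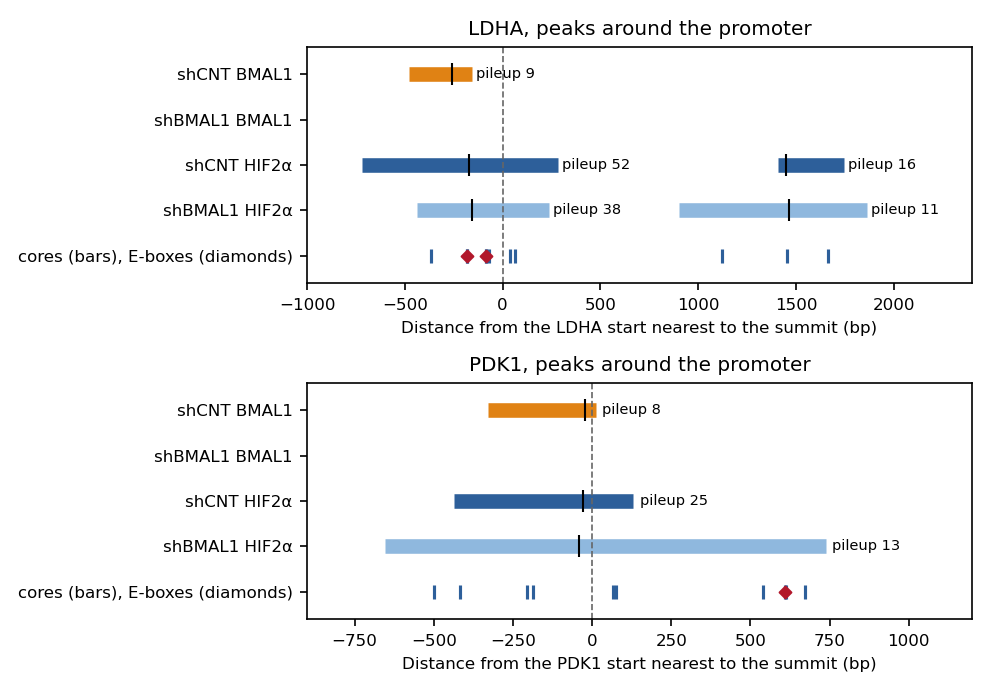
Extent of each peak (bar), its summit (black tick) and pileup at the LDHA promoter (upper panel) and the PDK1 promoter (lower panel), by distance in bp from the start nearest to the summit, with hypoxia-element cores as blue ticks and E-boxes as red diamonds. At LDHA the shCNT BMAL1 peak (pileup 9) lies within the shCNT HIF2α peak (pileup 52), and at PDK1 all summits fall within 40 bp of the start.

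The other LDHA regions were weaker. One in an intron ranked 387 and 414, with pileups of 16 and 11. Its summit lay 269 bp before another annotated LDHA start in shCNT and 254 bp before it under shBMAL1, so it also meets the 1 kb rule for promoters. One 10.7 kb before the start ranked 464 in shCNT, and its counterparts, HIF2α under shBMAL1 (rank 633, pileup 9) and BMAL1 in shCNT (rank 522, pileup 7), lay just outside the 10 kb limit. It held an AP-1 site and no core around the shCNT summit.

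PDK1 encodes the kinase that inhibits pyruvate dehydrogenase and so keeps pyruvate from the mitochondrion. Its HIF2α promoter peak ranked 157 in shCNT (chr2:173420300-173420865) and 1974 under shBMAL1 (chr2:173420081-173421473), the largest difference in rank among the 12 regions. The pileups were 25 (16.2 to 36.9) and 13 (6.92 to 22.2), which over the genome-wide background were 120 and 119, a ratio of 0.993 (0.466 to 2.01), or 0.65 when scaled by the median pileup of shared peaks. The local background was 0.582 in shCNT and 2.21 under shBMAL1, the highest of the shBMAL1 HIF2α list. Ranked by pileup the peak stood at 106 and 266. BMAL1 was called here in shCNT (rank 1832, pileup 8) and not under shBMAL1. Scaled to that depth the pileup would be 4.0 (1.73 to 7.88) against a smallest callable pileup of 3, so the interval reaches below the limit.

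Taking the 12 regions with HIF2α in both lists, the depth-scaled ratio of shBMAL1 over shCNT had a median of 1.31 (range 0.954 to 2.26). Over all 1318 shared HIF2α peaks the median was 1.53 (quartiles 1.19 and 1.91), and 9 of the 12 regions were below it. All 12 intervals included both 1 and the median of the shared peaks, so no single region was resolved from either. Shared peaks with a shCNT pileup of at least 10 had a median of 1.38. The direction depends on the scaling: with the median pileup of shared peaks set equal in place of the background, the median of the 12 regions was 0.862 (range 0.625 to 1.48), with 3 of the 12 above 1. By percentile to 3 digits, 4 of the 12 were lower under shBMAL1 and 5 higher.

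**Figure D3:**
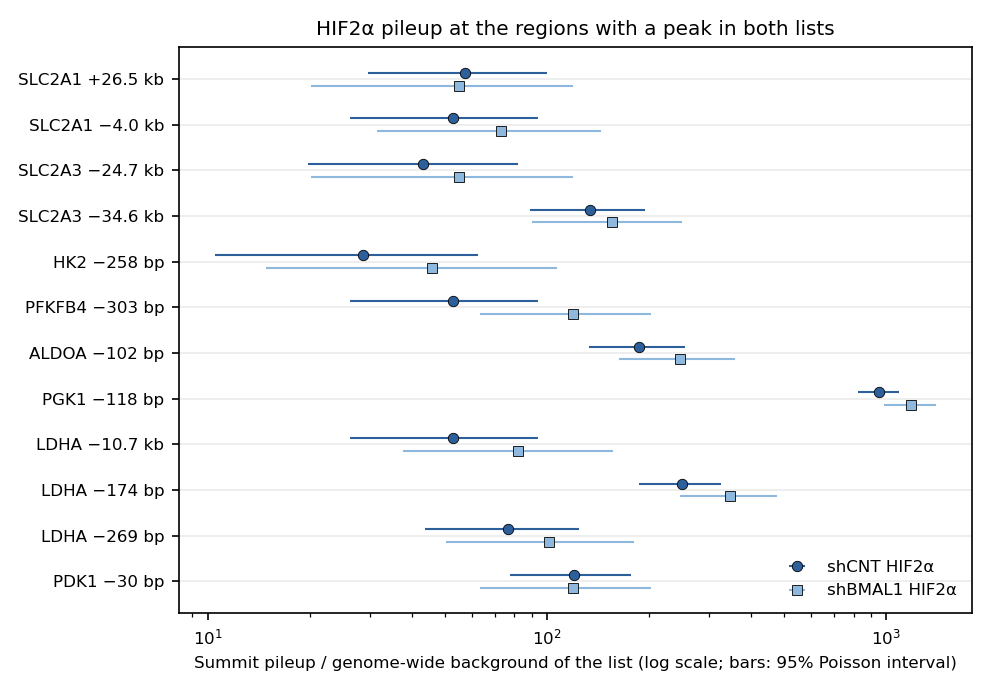
HIF2α summit pileup divided by the genome-wide background of its list (x axis, log scale) at the 12 regions called in both lists, in shCNT (dark circles) and under shBMAL1 (light squares), with 95% Poisson intervals that cover counting error only. The PGK1 promoter (953 and 1180) is above all others, and the paired intervals overlap at every region.

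**Figure D4:**
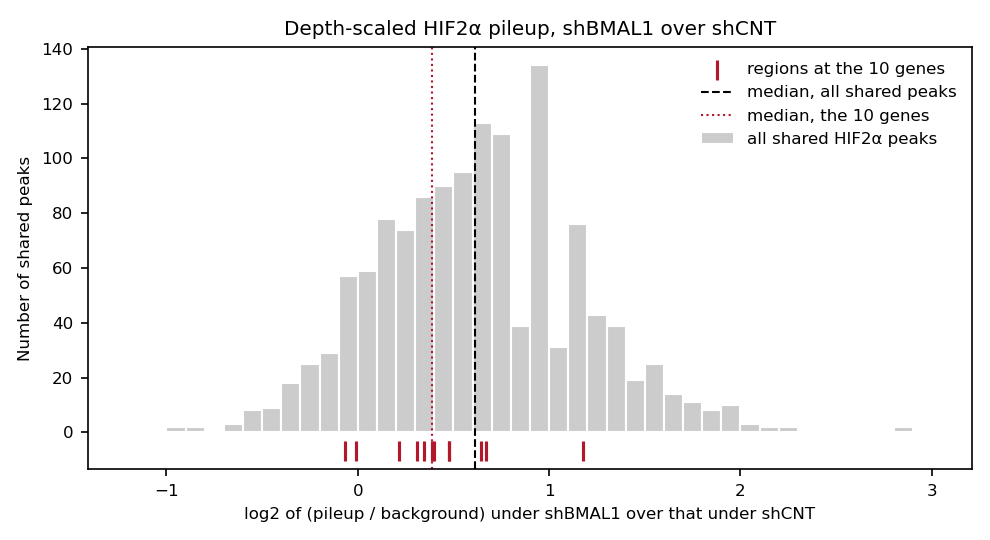
Number of shared HIF2α peaks (y axis) by the log2 of the depth-scaled pileup under shBMAL1 over that in shCNT (x axis), for all 1318 shared peaks (grey bars) and the 12 regions at the 10 genes (red ticks). The median of the 12 regions (dotted, 1.31 as a ratio) lies left of that of all shared peaks (dashed, 1.53), and PFKFB4 is the tick farthest right.

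Joint calls of BMAL1 and HIF2α were counted within each shRNA, and then across them for BMAL1 of shCNT. Of the HIF2α peaks, 3 of 15 in shCNT (20%, 7.05 to 45.2, beside 24.9% of the list) and 2 of 15 under shBMAL1 (13.3%, 3.74 to 37.9, beside 28.4%) overlapped BMAL1 of that shRNA. Both intervals include the share of the list. From the side of BMAL1 in shCNT, 2 of 6 peaks (33.3%, 9.68 to 70) overlapped HIF2α of shCNT (25.0% of the list), and both were promoter peaks, at LDHA and PDK1. Of the BMAL1 peaks under shBMAL1, 2 of 7 (28.6%) overlapped HIF2α of shBMAL1, at ALDOA and PFKFB3. Across the shRNAs, all 6 BMAL1 peaks of shCNT overlapped a HIF2α peak of shBMAL1 (Wilson interval 61.0 to 100), beside 24.9% of the shCNT BMAL1 list. 4 of the 6 did so without HIF2α in shCNT, at SLC2A1, SLC2A3 and 2 places in PFKFB3, beside 9.62% of the list. That last count was singled out after its values were seen and the pileups behind it were 5 to 8. Which control library each list was called against is not stated.

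Whole hypoxia-element cores stood in the 200 bp around the summit of 11 of 15 HIF2α peaks in each list (73.3%, 48.0 to 89.1). Over the whole lists it was 66.0% in shCNT and 59.3% under shBMAL1, and windows 2 kb to either side held a core in 25.6% and 24.9%. The share at the 10 genes was therefore near that of the lists. The GC content of these windows had a median of 64.0% in shCNT and 66.0% under shBMAL1, against 54.5% and 52.0% over the lists, and its part in the count was not tested. BMAL1 peaks held a core in 5 of 6 in shCNT (48.0% of the list) and 3 of 7 under shBMAL1 (38.4%). An E-box was in 2 of the 15 HIF2α windows of shCNT, at LDHA and at the ATP7A start, beside 6.4% of the list. Among the 19 ACGTG sites in the HIF2α windows at these genes, T was the base before the core in 3, C in 6, G in 8 and A in 2, where an E-box counts once on each strand. Over all HIF2α windows T came before 36.1% of 2595 such sites.

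**Figure D5:**
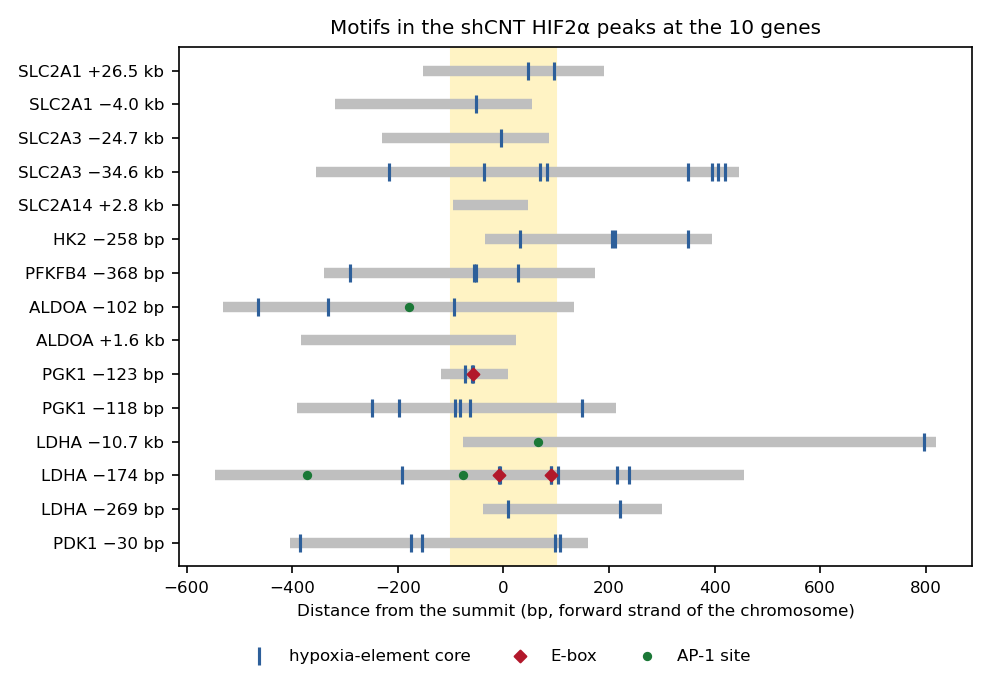
Extent of the 15 shCNT HIF2α peaks (grey bars) by distance in bp from the summit (x axis), labelled by gene and distance to its nearest start, with cores (blue ticks), E-boxes (red diamonds) and AP-1 sites (green dots) found within each peak and the 200 bp window shaded. Whole cores fall in the shaded window of 11 peaks, 1 core of PDK1 crosses its edge, and the LDHA promoter holds 2 E-boxes.

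The rest of the pathway was read from a list of 49 further genes for transport, glycolysis, lactate export and pyruvate entry. HIF2α was called at 15 (30.6%) in shCNT and 13 (26.5%) under shBMAL1, beside 11.4% and 13.5% of all protein-coding genes. BMAL1 was called at 14 (28.6%) in shCNT and 15 (30.6%) under shBMAL1, beside 12.8% and 18.6%. The windows of these genes had a median of 50.4 kb. Placed in the order of the pathway together with the 10 genes, uptake, the steps from hexokinase to pyruvate kinase, and lactate dehydrogenase make 12 steps, and each of the 12 had at least 1 gene with a HIF2α peak in shCNT and under shBMAL1. At promoters it was 11 of 12 in each list, counted by starts of transcripts in the GENCODE basic set. The exception was GPI, the isomerase after hexokinase, and it rests on that choice of starts. The strongest HIF2α peak of GPI in each list spanned the outermost annotated start of the gene. The BMAL1 lists reached 7 of the 12 steps each, and 4 in shCNT and 3 under shBMAL1 at promoters. Steps hold 1 to 12 genes, so the count has no counterpart over all genes, and the phosphoglycerate kinase step rests on PGK1 alone, with the limit given for its promoter peak.

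Among these genes GPI carried HIF2α at rank 32 in shCNT and 38 under shBMAL1, with an E-box and a BMAL1 peak of shCNT (rank 1061). These peaks spanned the outermost annotated start of GPI (chr19:34850385) and lay upstream of its nearest start in the basic set. PKM, the pyruvate kinase, ranked 39 and 55 in an intron. GAPDH, the dehydrogenase before PGK1, ranked 128 and 171 at its promoter, and SLC16A3, the lactate exporter MCT4, ranked 149 and 290. The peak in the window of PGAM1, the mutase after PGK1, ranked 93 in shCNT and 693 under shBMAL1. It spanned the PGAM1 start (chr10:99185948) in both lists, and its summit was nearest to the start of RRP12. For BMAL1, SLC2A4, which encodes the insulin-responsive transporter GLUT4, ranked 98 in shCNT (pileup 12) and 749 under shBMAL1 (pileup 8) over a promoter E-box, and SLC2A2 ranked 390 under shBMAL1. The presence pattern of LDHA, PDK1 and SLC2A3, BMAL1 in shCNT with HIF2α in both lists, was the commonest when all peaks of a gene's window were pooled, and GPI and ENO1, an enolase, showed it over the 4 lists. At SLC2A3 the BMAL1 peak lay apart from the regions with HIF2α in both lists. By region the commonest pattern was HIF2α in both lists without BMAL1, at 8 of 24, against 3 with BMAL1 in shCNT as well.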

How the data were processed

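Groups of CUT&RUN libraries follow their titles (shRNA, antibody). Per the labels and methods, the authors aligned reads to hg19 (GRCh37) with Bowtie2 2.5.3 and removed duplicate reads. They called peaks with MACS2 2.2.9.1 at a −log10 p limit of 5 and filtered the peaks with bedtools 2.31.1. Pooling of libraries and the control used are not given in the sources used here. Each deposited list gives a fold, a linear ratio of pileup to background, a p-value and q-value as −log10, a score and a summit. The authors' score and q-value were not used further. Files of the other 16 libraries and spike-in signal tracks were not analysed here.

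The pileup was solved from the authors' fold and p-value, as a whole number within 0.001 in −log10 p for 100% of peaks, and the lowest background of a list was taken as its genome-wide background. Smallest callable pileups hold at that background, and pileups scaled to another list use the backgrounds of both lists. Depth-scaled pileups carry Poisson and exact conditional intervals, and shares Wilson intervals, all at 95%. Intervals cover counting error only, since each group has 1 list and no replicate. Ranks, overlaps of at least 1 bp and motifs in 200 bp at the summit were taken over whole lists. Motifs searched on both strands were ACGTG and GCGTG (the hypoxia-element core), CACGTG (E-box, which contains the core), and TGACTCA and TGAGTCA (AP-1). Genes came from GENCODE release 44 mapped to GRCh37, and sequences from the GRCh37 primary assembly. Starts, and so promoters, were those of transcripts in the GENCODE basic set. Every peak of the 10 genes was taken, and those of genes with a HIF2α peak at or above the 90th percentile or a region in 3 lists were described in full. Pathway genes were named where a peak reached the 90th percentile, or for the commonest presence pattern. Other pathway genes enter by count only. The genes and lists were chosen with earlier results of these data known. With 1 list per group no p-value was computed.

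Alternatives were other windows around genes, a −log10 p of at least 8, lists of equal length (2350), other overlap rules, motif windows of 100 and 400 bp or the whole peak, rank by fold, and another scaling of pileups. A pileup of at least 5, promoters, rank by pileup and leaving out PGK1 were added after the data were seen. Pileup recovery, overlap and motif counting were tested on simulated data. Scripts ran in Python 3.11.15 with pandas 2.3.3, pysam 0.24.0, matplotlib 3.10.9, scipy 1.17.1 and numpy 2.4.6.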

Additional observations from a re-analysis of the deposited data

How the results depend on the processing

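No paired analysis was possible because each group has 1 list with no replicate numbers, and for the same reason no replicate could be left out. The numbers of the 10 genes with HIF2α and of their HIF2α peaks were within 1.5 times under each window and threshold tried, while HIF2α peaks under shBMAL1 that overlapped BMAL1 went from 2 of 15 to 1 of 13 (7.69%) at the stricter threshold. Most changes touched BMAL1, whose pileups were 3 to 9. With gene bodies alone, genes with a peak fell to 3 of 10 for shCNT BMAL1, and pathway genes to 9 for shCNT BMAL1 and 8 for shBMAL1 BMAL1, while 50 kb gave 23 for shBMAL1 BMAL1. Promoters alone gave 3 and 1 of the 10 genes for the shCNT and shBMAL1 BMAL1 lists, and 6, 7 and 9 pathway genes for shCNT BMAL1, shBMAL1 BMAL1 and shCNT HIF2α. At a −log10 p of at least 8, shCNT BMAL1 kept 1 peak at 1 of the 10 genes and 7 pathway genes, shBMAL1 BMAL1 kept 4 peaks, and 0 of 1 and 0 of 4 were present under the other shRNA. Equal list length and a pileup of at least 5 each left 4 shBMAL1 BMAL1 peaks. Cores stood in 33.3% of shCNT BMAL1 and 46.7% of shCNT HIF2α peaks in 100 bp windows. In 400 bp windows it was 100% of shCNT BMAL1, 85.7% of shBMAL1 BMAL1 and 100% of shBMAL1 HIF2α peaks. It was 100% (1 of 1) and 75.0% (3 of 4) of shCNT and shBMAL1 BMAL1 peaks at the stricter threshold, and 75.0% of shBMAL1 BMAL1 peaks at equal length or a pileup of at least 5. Scaling by the median pileup of shared peaks turned the median HIF2α ratio from 1.31 to 0.862, and that of PGK1 from 1.24 to 0.81. The choice between these scalings could not be tested with 1 list per group.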
